A study of Mus musculus with 6 samples.

Results

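The genes described here are 34 ribosome biogenesis and Myc target genes: the transcription factor Myc and 33 genes whose products build ribosomes in the nucleolus. They were taken as the probe sets whose annotation gave one of these symbols alone, with the probe set of highest mean log2 level standing for each gene. All 34 were found among the 18193 genes named on the arrays. Expression was measured in regulatory T cells (Tregs), the CD4+ T cells that carry the transcription factor Foxp3 and restrain immune responses. CD4+ cells with GFP and without B220, CD8a, CD11b or CD11c were sorted from the spleens of female NOD mice, a strain that develops autoimmune diabetes. Each of 6 Affymetrix M430v2 arrays held RNA from 1 mouse. All 6 mice carried the BDC2.5 T cell receptor transgene, which recognises a pancreatic islet antigen, and the Foxp3GFP reporter, which makes Foxp3-expressing cells fluoresce. The 3 treated mice were RAG1o/o and were given the anti-CD3 antibody KT3 intravenously, 37.5 µg a day for 5 days in a row, starting at an age of 17 days. Their Tregs were taken at 29, 29 and 28 days of age, which the labels give as 12, 12 and 11 days after treatment. The 3 untreated mice were RAG1+/o and were 29, 28 and 28 days old. RAG1o/o mice cannot rearrange receptor genes of their own, so they lack B cells and their T cells carry the transgenic receptor alone. Treatment and RAG1 genotype therefore differed together and cannot be told apart.

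Ribosomes are assembled in the nucleolus, where RNA polymerase I transcribes the ribosomal RNA precursor. Small nucleolar ribonucleoproteins (snoRNPs) modify that precursor, and a large set of assembly factors cuts it, folds it and joins it with ribosomal proteins into the small and large subunits. Myc binds DNA as a dimer with Max at E-box sequences and is known to raise transcription of many of these genes. In T cells the programme is induced when the antigen receptor is engaged and the cell grows and divides.

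Values are log2 of the deposited array intensity, and differences are treated minus untreated on that scale, so that 1 unit is a doubling of the intensity. Array medians before log2 lay between 85.273 and 92.448, and correlations between arrays lay between 0.947 and 0.990. Treated replicate 2 had the narrowest distribution, with an interquartile range of 2.59 log2 units, and treated replicate 3 the widest, at 3.01. Foxp3 was at 11.43, 11.46 and 12.44 in treated Tregs and at 10.75, 9.95 and 11.07 in untreated Tregs. Cd3e, a chain of the T cell receptor complex, was at 11.97, 12.02 and 12.16 in treated Tregs and at 11.82, 11.62 and 11.78 in untreated Tregs. Of 14 measured T cell and Treg markers, 3 had every treated value above every untreated value, namely Foxp3, Cd3e and Cd247. That compares with 5.61% of all genes, and the groups overlapped for the rest of the list. The difference was above 0 for 12 of the 14 and below 0 for 2, Il2ra and Nrp1. The log2 ratio of 3′ to 5′ Gapdh control probe sets, a measure of RNA integrity and of the amplification, was 3.38, 3.65 and 4.10 on the treated arrays and 3.23, 3.87 and 2.02 on the untreated arrays. The same ratio for actin was 1.42, 1.94 and 3.62 on the treated arrays and 1.31, 1.95 and 0.92 on the untreated arrays. Treated replicate 3 had the highest ratio for both controls, and untreated replicate 3 the lowest. The part of these 3′ to 5′ ratios in the differences below was not tested. In sorted bulk cells, less RNA per cell and fewer cells that hold the RNA cannot be told apart.

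No member gene differed between treated and untreated Tregs past the threshold of an adjusted p of 0.05 in limma. The same was so of all 18193 genes, of which 0 (0%) passed. At an unadjusted p under 0.05, 2 members were lower in treated Tregs, Fbl and Ncl, against 3.17% of all genes. Ppan was the 1 member higher at that level, against 1.82% of all genes. The 3 treated values lay below all 3 untreated values for 2 members, again Fbl and Ncl, against 5.24% of all genes. They lay above all 3 untreated values for 2 members, Ppan and Nhp2, against 5.61% of all genes. Each of these 4 counts lay within 1 gene of what the percentage of all genes gives for 34 genes. The difference was below 0 for 22 members, or 64.7%, against 41.5% of all genes. The median difference was −0.17 over the members and 0.05 over all genes. The smallest adjusted p among the members was 0.914. Without treated replicate 2 the count below 0 was 17 of 34, against 49.6% of all genes, and the members' median was 0.005.

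**Figure D1:**
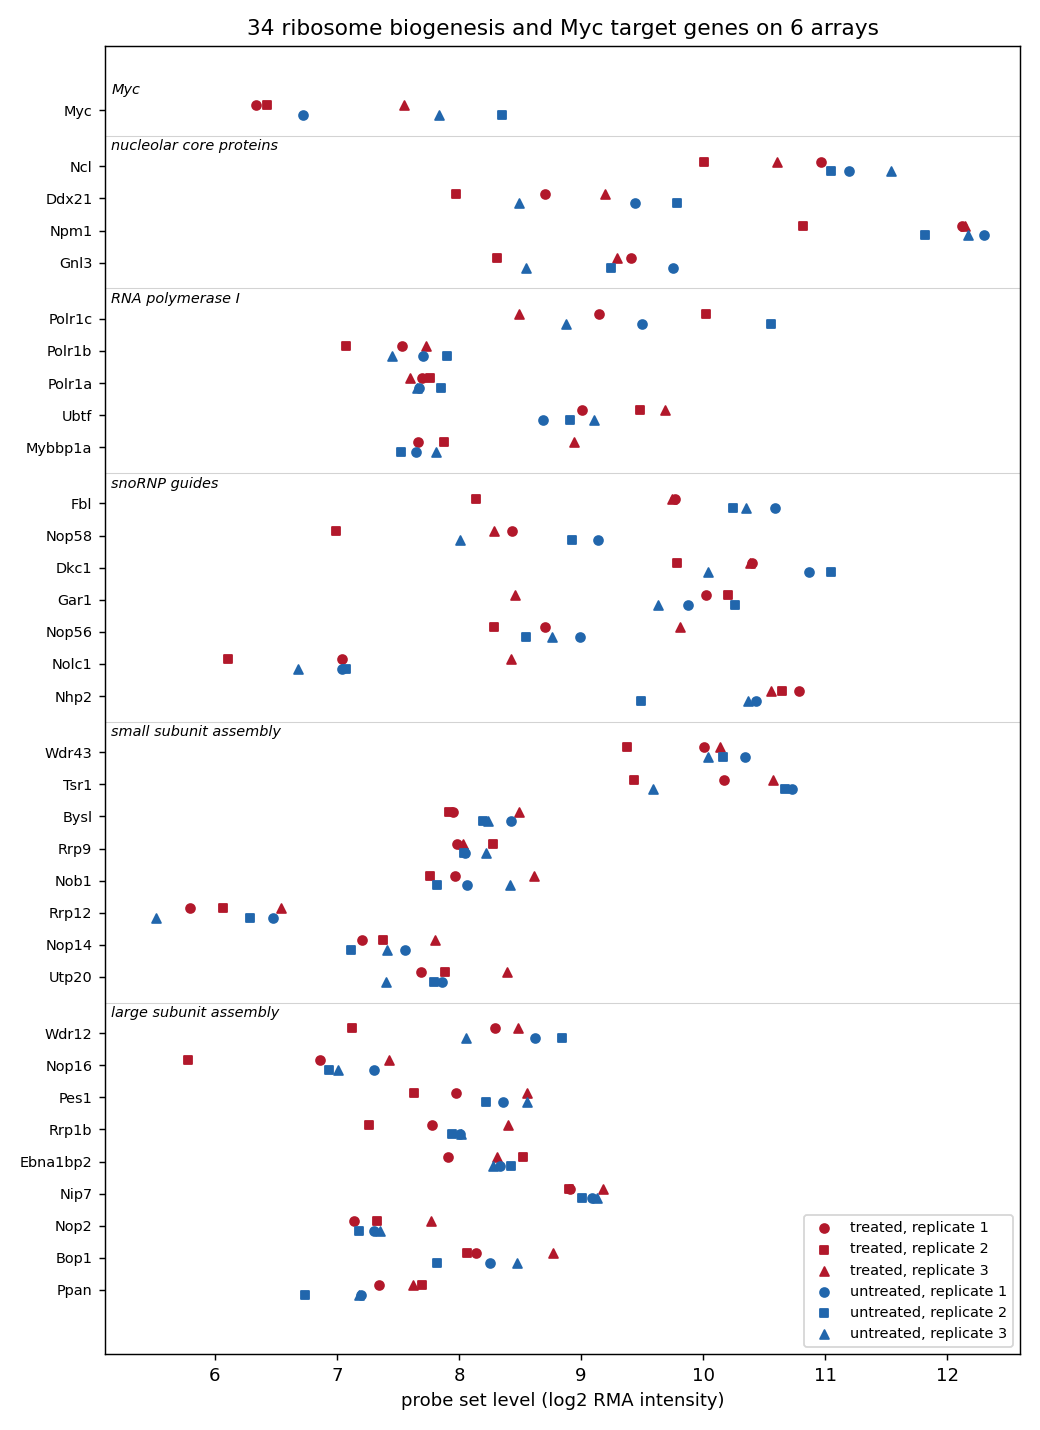
Level of each of the 34 genes on each array, as log2 intensity along the horizontal axis, grouped by role. Red symbols are the 3 treated arrays and blue symbols the 3 untreated arrays, with circles, squares and triangles for replicates 1, 2 and 3. The red squares of treated replicate 2 are the lowest symbol for 19 of the 34 genes.

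Since Myc acts through E-boxes, the promoter windows of the member genes are shown first, to place the genes beside the letters that Myc is known to bind. RefSeq windows of 300 bases, 250 before and 50 after the annotated transcription start in the mouse build GRCm38.p6, were matched by symbol for 29 of the 34 genes, in 37 windows. Myc, Fbl, Npm1, Bop1 and Rrp12 had no matched window. The canonical E-box CACGTG, which reads the same on both strands, was present in 6 of 37 windows (16.2%). It was present in 16.8% of 107 windows of other ribosome biogenesis factors, in 8.72% of 18109 windows of all genes on the arrays and in 7.15% of all 32851 windows in the table. The related letters CACGCG, searched on both strands and so also read as CGCGTG, were in 12 of 37 member windows (32.4%) and in 13.9% of windows of genes on the arrays. A match is a description of the letters only. Stretches with CACGTG follow, for Mybbp1a, Nop2, Pes1, Tsr1, Utp20 and Wdr43. After them come the CGCGTG stretches of Ppan and Nhp2, picked because their treated values all lay above the untreated ones. Each is written 5′ to 3′ on the strand of the gene, with the match in capitals.

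Mybbp1a, chr11:72441347-72441376, plus strand: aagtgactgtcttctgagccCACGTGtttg

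Nop2, chr6:125131796-125131855, plus strand: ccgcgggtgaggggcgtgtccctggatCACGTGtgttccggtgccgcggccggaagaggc

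Pes1, chr11:3963945-3964004, plus strand: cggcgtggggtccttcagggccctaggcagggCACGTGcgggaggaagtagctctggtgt

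Tsr1, chr11:74898050-74898109, plus strand: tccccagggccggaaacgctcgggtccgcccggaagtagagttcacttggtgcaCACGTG

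Utp20, chr10:88826765-88826794, minus strand: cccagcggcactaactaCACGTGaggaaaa

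Wdr43, chr17:71616185-71616244, plus strand: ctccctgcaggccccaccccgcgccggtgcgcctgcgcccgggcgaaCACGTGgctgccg

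Ppan, chr9:20888145-20888204, plus strand: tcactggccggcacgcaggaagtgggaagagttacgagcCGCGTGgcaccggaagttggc

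Nhp2, chr11:51619743-51619802, plus strand: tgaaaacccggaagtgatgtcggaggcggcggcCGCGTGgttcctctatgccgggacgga

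The CACGTG match began 60 bases before the annotated start in Nop2. It began 2 bases after the start in Pes1, 17 in Wdr43, 24 in Tsr1, 37 in Utp20 and 40 in Mybbp1a. The 6 genes with CACGTG did not share a direction. The difference was 0.50 for Mybbp1a, 0.30 for Utp20 and 0.13 for Nop2, and it was −0.34 for Wdr43, −0.32 for Pes1 and −0.27 for Tsr1. Nor did the 11 genes with CACGCG on either strand share a direction. Of these, Ddx21, Polr1c, Nop16, Pes1, Bysl and Nip7 were below 0, and Nhp2, Ppan, Mybbp1a, Ubtf and Nolc1 were above 0. The letters CCGGAAG, a core bound by ETS factors and seen in several of these stretches, were searched after the sequences had been read. They were in 9 of 37 member windows (24.3%), in 48.6% of windows of the other biogenesis factors and in 13.0% of windows of genes on the arrays. The windows of Ncl, Dkc1, Gnl3, Nob1, Nop14, Nop56, Nop58, Polr1a, Polr1b, Rrp1b, Rrp9 and Wdr12 held none of these 3 sets of letters.

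Myc, which drives cell growth and the transcription of ribosome genes, had log2 levels of 6.34, 6.43 and 7.55 in treated Tregs and of 6.72, 8.35 and 7.83 in untreated Tregs. Treated replicate 3 stood above the other treated arrays and above untreated replicate 1, so the groups overlapped. The difference was −0.86, or 1.82-fold lower in treated Tregs, with a 95% interval of −2.01 to 0.28 (limma, adjusted p 0.914). It was −0.44 with age as a covariate, −1.32 without untreated replicate 1 and −0.51 without untreated replicate 2. Myc was represented by 1 probe set. On treated replicates 1 and 2 and untreated replicate 1 it lay below 7, the log2 level under which a probe set was counted as dim on an array. The fold value is thus less certain than for brighter genes.

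The nucleolar core proteins were below 0 in all 4 members, with a median difference of −0.51. Ncl, or nucleolin, an abundant nucleolar protein that binds the ribosomal RNA precursor, had levels of 10.97, 10.01 and 10.61 in treated Tregs and of 11.19, 11.05 and 11.54 in untreated Tregs. Each treated value was lower than each untreated value, though treated replicate 1 and untreated replicate 2 were close. The mean was 10.53 ± 0.48 in treated Tregs and 11.26 ± 0.25 in untreated Tregs (SD, n = 3 each). The difference was −0.73, or 1.66-fold lower, with an interval of −1.38 to −0.09, an unadjusted p of 0.0311 and an adjusted p of 0.914 in limma. Ncl had 5 probe sets, and the other 4 differed by −0.94, −0.35, −0.02 and 0.06. Without treated replicate 2 the difference of Ncl was −0.47.

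Npm1, or nucleophosmin, a nucleolar chaperone that helps carry subunits out of the nucleus, had levels of 12.12, 10.82 and 12.15 in treated Tregs and of 12.30, 11.82 and 12.17 in untreated Tregs. Treated replicate 2 alone stood 1 unit or more below every untreated array. The difference was −0.40 with an interval of −1.28 to 0.48 (adjusted p 0.920), and it was 0.04 without treated replicate 2. Ddx21, an RNA helicase of the nucleolus, had levels of 8.71, 7.97 and 9.19 in treated Tregs and of 9.45, 9.79 and 8.49 in untreated Tregs. Its difference was −0.62, with an interval of −1.60 to 0.37 (adjusted p 0.914), and −0.29 without treated replicate 2. The other Ddx21 probe set differed by 0.08. In the levels given, untreated replicate 3 stood apart from the other untreated arrays and lay below 2 of the 3 treated ones. Gnl3, or nucleostemin, a GTPase of the nucleolus, showed the same arrangement, with 9.41, 8.31 and 9.30 in treated Tregs and 9.75, 9.24 and 8.55 in untreated Tregs. Its difference of −0.18 turned to 0.17 without treated replicate 2.

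**Figure D2:**
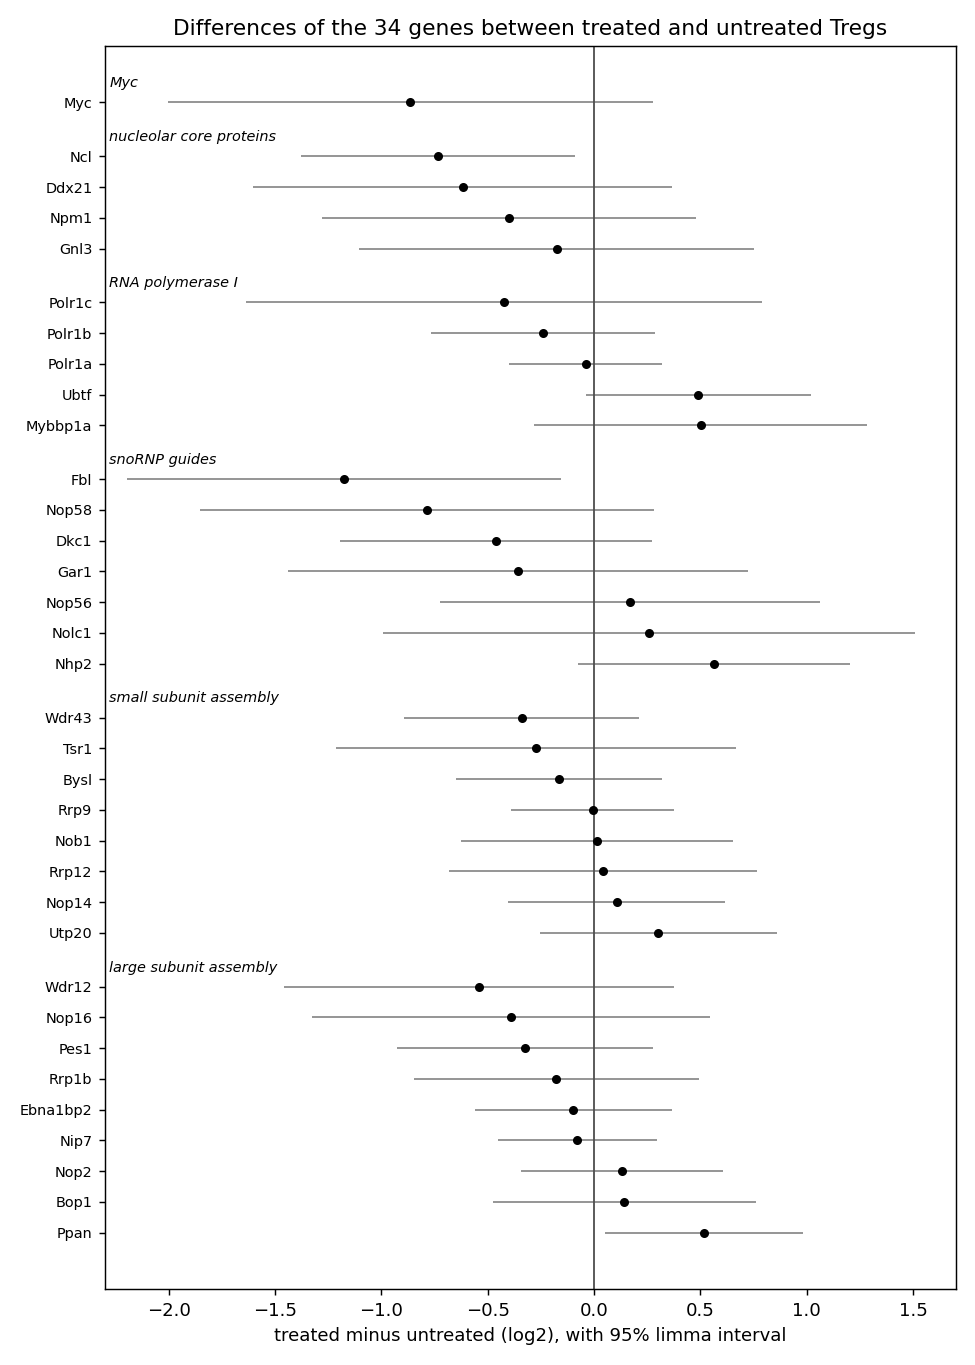
Difference of each of the 34 genes, treated minus untreated on the log2 scale, with its 95% limma interval, grouped by role. Points left of 0 are lower in treated Tregs. The intervals of Fbl and Ncl lie below 0 and that of Ppan above 0, and the intervals of the other 31 genes cross 0.

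The RNA polymerase I genes split into 3 below 0 and 2 above 0, with a median of −0.04. Ubtf, which binds the promoter of the ribosomal RNA genes and recruits the polymerase, had levels of 9.01, 9.48 and 9.69 in treated Tregs and of 8.69, 8.91 and 9.10 in untreated Tregs. The lowest treated value lay below the highest untreated value, while the 2 other treated values lay above every untreated one. The difference was 0.49, with an interval of −0.04 to 1.02 (limma, adjusted p 0.914), and its other probe set differed by 0.05. Mybbp1a, a nucleolar protein known to restrain ribosomal RNA synthesis, was at 7.67, 7.88 and 8.94 in treated Tregs and at 7.65, 7.52 and 7.81 in untreated Tregs. Its difference of 0.50, with an interval of −0.28 to 1.29, came largely from treated replicate 3, and without that array it was 0.11.

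The polymerase subunits themselves were close to or below 0. Polr1a, the largest catalytic subunit, was between 7.60 and 7.76 in treated Tregs and between 7.65 and 7.85 in untreated Tregs, a difference of −0.04 with an interval of −0.40 to 0.32. Polr1b, the other catalytic subunit, differed by −0.24, or by −0.06 without treated replicate 2. Polr1c, a subunit shared with RNA polymerase III, was at 9.15, 10.02 and 8.49 in treated Tregs and at 9.50, 10.56 and 8.87 in untreated Tregs. Replicate 2 was the highest array of each group for Polr1c, and the difference was −0.42, or −0.83 without treated replicate 2 and 0.03 without untreated replicate 2. Between same-numbered arrays it was −0.35, −0.54 and −0.39. A further Polr1c probe set was at 8.18, 7.59 and 8.07 in treated Tregs and at 8.46, 8.42 and 8.58 in untreated Tregs, a difference of −0.54 with no overlap of the groups.

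The snoRNP guides held both the lowest and the highest difference of all 34 genes, with 4 genes below 0, 3 above 0 and a median of −0.36. Fbl, or fibrillarin, the enzyme that methylates ribosomal RNA in box C/D snoRNPs, had levels of 9.77, 8.14 and 9.74 in treated Tregs and of 10.59, 10.24 and 10.35 in untreated Tregs. Every treated array lay below every untreated array, and treated replicate 2 lay more than 1 unit below the other treated arrays. The mean was 9.22 ± 0.93 in treated Tregs and 10.39 ± 0.18 in untreated Tregs (SD, n = 3 each). The difference was −1.18, or 2.26-fold lower, with an interval of −2.20 to −0.16, an unadjusted p of 0.0292 and an adjusted p of 0.914 in limma. Without treated replicate 2 it was −0.64, and with all arrays quantile normalized it was −0.77. The other Fbl probe set also separated the groups, with 9.88, 8.47 and 9.80 in treated Tregs and 10.39, 10.06 and 10.22 in untreated Tregs, a difference of −0.84.

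Nop58, a scaffold protein of the same box C/D particles, had levels of 8.44, 6.99 and 8.29 in treated Tregs and of 9.14, 8.93 and 8.01 in untreated Tregs. Untreated replicate 3 lay below 2 treated arrays, so the groups overlapped. The difference was −0.79, with an interval of −1.85 to 0.28 (limma, adjusted p 0.914), and −0.33 without treated replicate 2. Nop56, the partner of Nop58 in those particles, differed in the other direction, by 0.17, with a second probe set at −0.33. Its levels were 8.71, 8.29 and 9.81 in treated Tregs and 8.99, 8.55 and 8.76 in untreated Tregs, so that treated arrays were both the highest and the lowest.

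The box H/ACA particles convert uridine to pseudouridine in ribosomal RNA, and their members also split. Dkc1, or dyskerin, the pseudouridine synthase, had levels of 10.40, 9.79 and 10.38 in treated Tregs and of 10.87, 11.05 and 10.04 in untreated Tregs. The difference was −0.46, with an interval of −1.19 to 0.27 (limma, adjusted p 0.914), and untreated replicate 3 lay within the treated range. It was −0.77 without that array, and −0.26 without treated replicate 2 or without untreated replicate 2. The other Dkc1 probe sets differed by −0.76 and 0.21. Nhp2, an RNA-binding protein of the same particle, had levels of 10.79, 10.64 and 10.55 in treated Tregs and of 10.44, 9.49 and 10.37 in untreated Tregs. All treated values lay above all untreated values, and the gap between the groups was small outside untreated replicate 2. The difference was 0.56, or 1.48-fold higher, with an interval of −0.08 to 1.20 (limma, adjusted p 0.914), and 0.26 without untreated replicate 2. The second Nhp2 probe set differed by −0.25, so the direction depended on the probe set.

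Gar1, the remaining H/ACA protein listed, was at 10.03, 10.20 and 8.46 in treated Tregs and at 9.88, 10.26 and 9.63 in untreated Tregs. Treated replicate 3 alone was low, and the difference of −0.36 turned to 0.19 without it. Nolc1, a phosphoprotein that escorts snoRNPs in the nucleolus, was at 7.04, 6.11 and 8.42 in treated Tregs and at 7.05, 7.07 and 6.68 in untreated Tregs. The untreated arrays lay inside the treated range, and the difference of 0.26 was −0.36 without treated replicate 3 and 0.80 without treated replicate 2. The other Nolc1 probe sets differed by −0.50 and 0.16.

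The factors of small subunit assembly divided evenly, with 4 genes below 0, 4 above 0 and a median of 0.003. Wdr43 and Utp20, components of the small subunit processome that folds the early precursor, differed by −0.34 and 0.30. Without treated replicate 2 Wdr43 differed by −0.11, and without treated replicate 3 Utp20 differed by 0.10. Wdr43 lay between 9.38 and 10.14 in treated Tregs and between 10.04 and 10.34 in untreated Tregs. Tsr1, which acts late in cytoplasmic maturation, was at 10.17, 9.43 and 10.57 in treated Tregs and at 10.73, 10.67 and 9.59 in untreated Tregs. Its difference of −0.27 was 0.04 without treated replicate 2 and −0.64 without untreated replicate 3. The others lay within 0.2 units of 0. They were Bysl, a small subunit assembly factor, at −0.17, Nop14, of the processome, at 0.11, and Rrp12, which aids export of subunits, at 0.04. Nob1, the nuclease that makes the last cut of the small subunit RNA, differed by 0.01, and Rrp9, a protein of the U3 snoRNP, by −0.01.

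The factors of large subunit assembly had 6 genes below 0, 3 above 0 and a median of −0.10. Ppan, a nucleolar protein needed to mature the large subunit RNA, had levels of 7.35, 7.69 and 7.63 in treated Tregs and of 7.20, 6.74 and 7.18 in untreated Tregs. Every treated array lay above every untreated array. The mean was 7.55 ± 0.18 in treated Tregs and 7.04 ± 0.26 in untreated Tregs (SD, n = 3 each). The difference was 0.52, or 1.43-fold higher, with an interval of 0.05 to 0.98, an unadjusted p of 0.0336 and an adjusted p of 0.914 in limma. Without treated replicate 2 it was 0.45.

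Pes1, Bop1 and Wdr12 form the PeBoW complex, which is needed for processing of the large subunit RNA, and they did not share a direction. Wdr12 was at 8.30, 7.12 and 8.48 in treated Tregs and at 8.62, 8.84 and 8.06 in untreated Tregs, a difference of −0.54 that was −0.12 without treated replicate 2. Pes1 was at 7.97, 7.63 and 8.55 in treated Tregs and at 8.36, 8.22 and 8.55 in untreated Tregs, a difference of −0.32 that was −0.11 without treated replicate 2 and −0.57 without treated replicate 3. Bop1 was at 8.14, 8.06 and 8.77 in treated Tregs and at 8.26, 7.82 and 8.47 in untreated Tregs, a difference of 0.14. In each of the 3 genes the groups overlapped.

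Nop16, an assembly factor of the early large subunit, was at 6.86, 5.78 and 7.43 in treated Tregs and at 7.30, 6.93 and 7.01 in untreated Tregs. Treated replicate 2 was again far below the rest, and the difference of −0.39 was 0.06 without it. The remaining large subunit genes lay within 0.2 units of 0. Rrp1b, a nucleolar assembly factor, differed by −0.18, Nop2, a methyltransferase of the large subunit RNA, by 0.13, Ebna1bp2, an assembly factor of the nucleolus, by −0.10, and Nip7, a further pre-ribosome factor, by −0.08. The other Rrp1b probe sets both differed by 0.19, and those of Ebna1bp2 by 0.25 and −0.08.

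The differences of the 34 genes depended on single arrays. Leaving out 1 array moved the difference by over 1.5 times, or turned it, for 32 of the 34 genes, all but Ppan and Ubtf. That count was not made over all genes, so it is not a result particular to these genes. Such a ratio also moves easily where the difference is near 0, as for Rrp9 at −0.01. Treated replicate 2 was the lowest of the 6 arrays for 19 of the 34 genes (55.9%), against 21.7% of all genes. Among genes with a mean log2 level of at least 8, it was the lowest for 15 of 22 members (68.2%). The share was 35.1% over all 6740 genes at that level. Treated replicate 3 was the highest array for 14 of the 34 (41.2%), against 21.8% of all genes. At a mean log2 level of at least 8 it was the highest for 6 of 22 members (27.3%), against 31.5% of all genes at that level. The median deviation of the 34 genes from their own 6-array means was −0.12, −0.42 and 0.28 on the treated arrays and 0.14, 0.05 and −0.03 on the untreated arrays. The lowest and the highest position thus both belonged to treated mice. The SD was larger among treated than among untreated arrays for 25 members (73.5%), against 65.2% of all genes. The median SD of the 34 genes was 0.45 in treated and 0.24 in untreated Tregs. Over all genes it was 0.29 and 0.19, and over the other biogenesis factors 0.38 and 0.26.

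**Figure D3:**
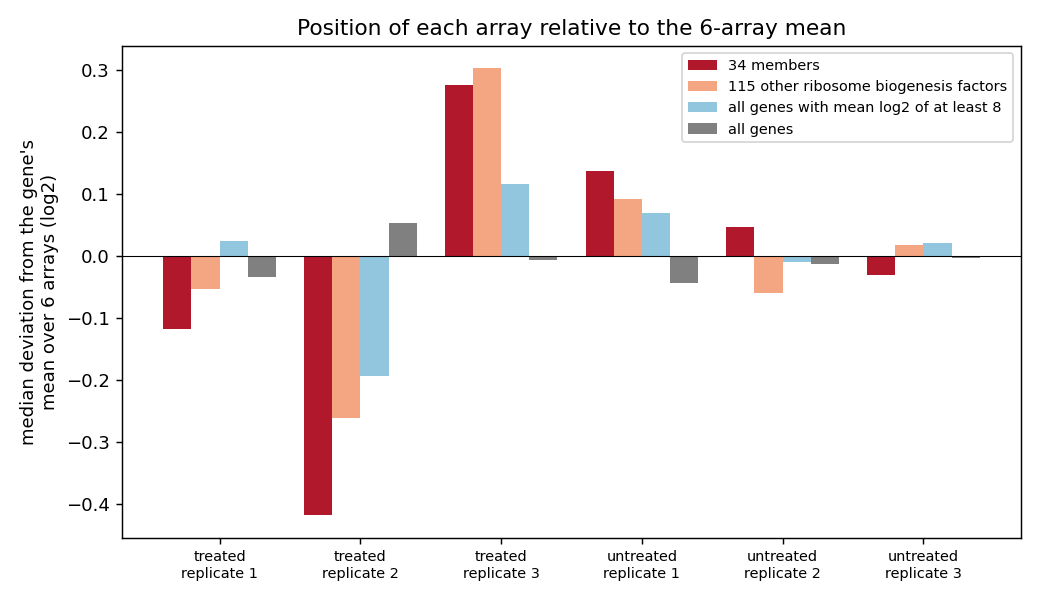
Median deviation of 4 gene sets from each gene's mean over 6 arrays, in log2 units, for the 3 treated arrays on the left and the 3 untreated arrays on the right. The 34 genes stand at −0.42 on treated replicate 2 and at 0.28 on treated replicate 3, and the other biogenesis factors at −0.26 and 0.30, while all genes stay within 0.06 of 0.

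The low position of treated replicate 2 was shared, to a smaller degree, by brightly measured genes as a whole. Genes with a mean log2 level of at least 8 had a median deviation of −0.19 on that array. Among the 22 members at that level, 17 were below 0 with a median difference of −0.30, against 53.7% below 0 and a median of −0.03 for all 6740 such genes. Among the 12 dimmer members 5 were below 0, and their median was 0.07. The members were divided by their mean level over all arrays. Treated replicate 2 also had the narrowest distribution of all values. With quantile normalization, which gives all arrays the same distribution, 21 members were below 0 and their median was −0.14.

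**Figure D4:**
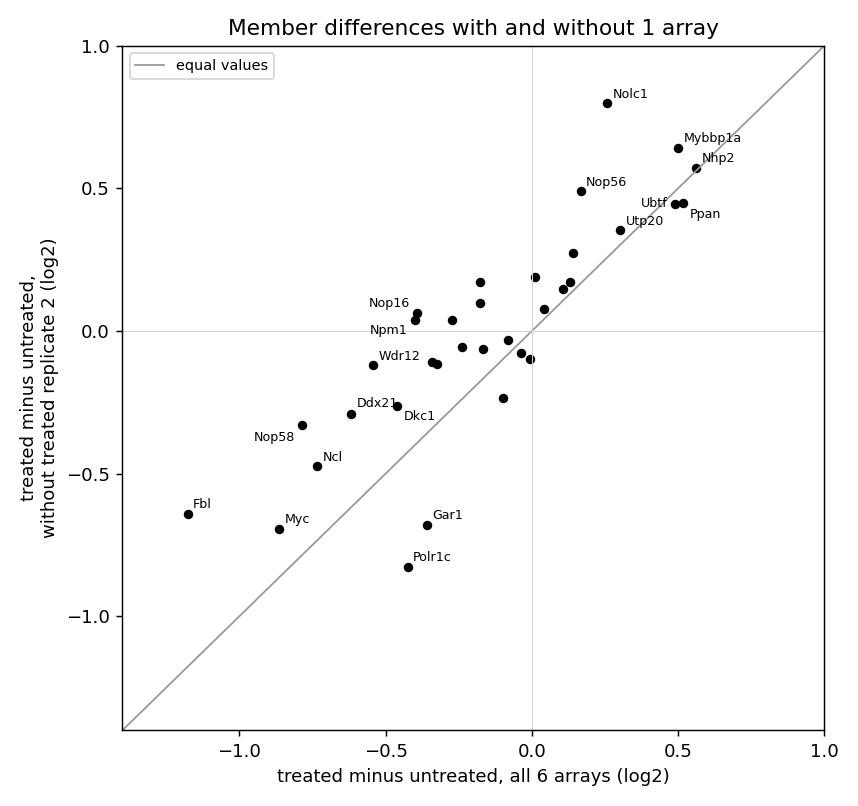
Difference of each of the 34 genes with all 6 arrays, on the horizontal axis, and without treated replicate 2, on the vertical axis, both treated minus untreated in log2 units. Points above the line of equal values moved upward when that array was left out. Fbl moved to −0.64 and Npm1 to 0.04, whereas Ppan stayed at 0.45 and Nhp2 at 0.57.

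Untreated replicate 3 also stood apart for some genes. It lay more than 0.5 units below both other untreated arrays for 8 members (23.5%), namely Ddx21, Dkc1, Gnl3, Nop58, Polr1c, Rrp12, Tsr1 and Wdr12, against 8.33% of all genes. Among 115 other ribosome biogenesis factors it did so for 9 (7.83%), near the share of all genes. Untreated replicate 3 differed in cell type markers too, as given below. Without it the members' count below 0 was 22, their median was −0.21, and 0 members and 32 of all genes passed the adjusted threshold.

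Of 119 further ribosome biogenesis factors listed, 115 were measured. The difference was below 0 for 65 of them (56.5%) and above 0 for 50. The share below 0 was 41.5% over all genes and 53.7% over genes with a mean log2 level of at least 8. The median difference of the 115 factors was −0.04, and 0 passed the adjusted threshold in limma. At an unadjusted p under 0.05, 5 were lower and 1 was higher in treated Tregs, against 3.17% and 1.82% of all genes. With treated replicate 2 left out, 42 of 115 were below 0, against 49.6% of all genes. Treated replicate 2 was the lowest array for 43.5% and treated replicate 3 the highest for 47% of these factors. Both extreme arrays were thus the same as in the 34 genes, while the order of the other arrays differed.

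Among the other small subunit factors 24 were below 0 and 17 above 0. Utp6, of the small subunit processome, was at 8.94, 8.19 and 8.34 in treated Tregs and at 9.49, 9.64 and 9.15 in untreated Tregs. The groups did not overlap, and the difference was −0.94 with an unadjusted p of 0.00628 and an adjusted p of 0.914 in limma. Nat10, which acetylates the small subunit RNA, ran the other way, with 7.51, 7.81 and 8.35 in treated Tregs and 7.31, 7.18 and 7.30 in untreated Tregs, a difference of 0.63. Utp4 and Utp15, both of the processome, differed by −0.50 and −0.35.

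Among the other large subunit factors 25 were below 0 and 17 above 0. The GTPases Gnl3l and Gtpbp4 differed by −0.87 and −0.76, and the nucleolar proteins Surf6 and Nol12 by −0.62 and 0.47. Gnl3l was at 7.88, 7.62 and 7.75 in treated Tregs and at 8.27, 9.38 and 8.20 in untreated Tregs, with no overlap. Of 9 further RNA polymerase I factors, 3 were below 0 and 6 above 0. The subunits of the promoter selectivity factor Taf1c, Taf1d and Taf1b differed by 0.47, 0.44 and −0.42, and the polymerase subunit Polr1e by 0.21. Of 23 snoRNP assembly and RNA exosome genes, 13 were below 0. The exosome cofactor Mphosph6 differed by −0.59, the exosome ring proteins Exosc8 and Exosc9 by −0.53 and −0.49, and the H/ACA assembly chaperone Shq1 by −0.33.

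In the Myc network, the partners, antagonists and regulators of Myc, 9 of 14 genes were below 0 with a median of −0.05. Skp2 and Fbxw7, the substrate receptors of ubiquitin ligases that act on Myc, differed by −0.69 and −0.30, and the Max-binding repressors Mxd1 and Mxd3 by −0.31 and −0.23. Max, the obligate partner of Myc, was at 8.11, 7.48 and 6.97 in treated Tregs and at 7.95, 8.23 and 6.68 in untreated Tregs, a difference of −0.10.

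Of 37 known Myc targets outside the ribosome, 35 were measured, and 26 (74.3%) were below 0 with a median of −0.13. The share below 0 was 41.5% over all genes and 53.7% over genes with a mean log2 level of at least 8. None of the 35 targets passed the adjusted threshold in limma, and 0 had an unadjusted p under 0.05. The chaperonin Hspd1 differed by −0.64, the cap-binding initiation factor Eif4e by −0.61, Ppat, the first enzyme of purine synthesis, by −0.54 and the arginine methyltransferase Prmt5 by −0.47. The mean level of the 35 genes was 10.45, 9.99 and 10.41 in treated Tregs and 10.61, 10.52 and 10.18 in untreated Tregs. Treated replicate 2 was again the lowest array, and untreated replicate 3 lay below the 2 other treated arrays.

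**Figure D5:**
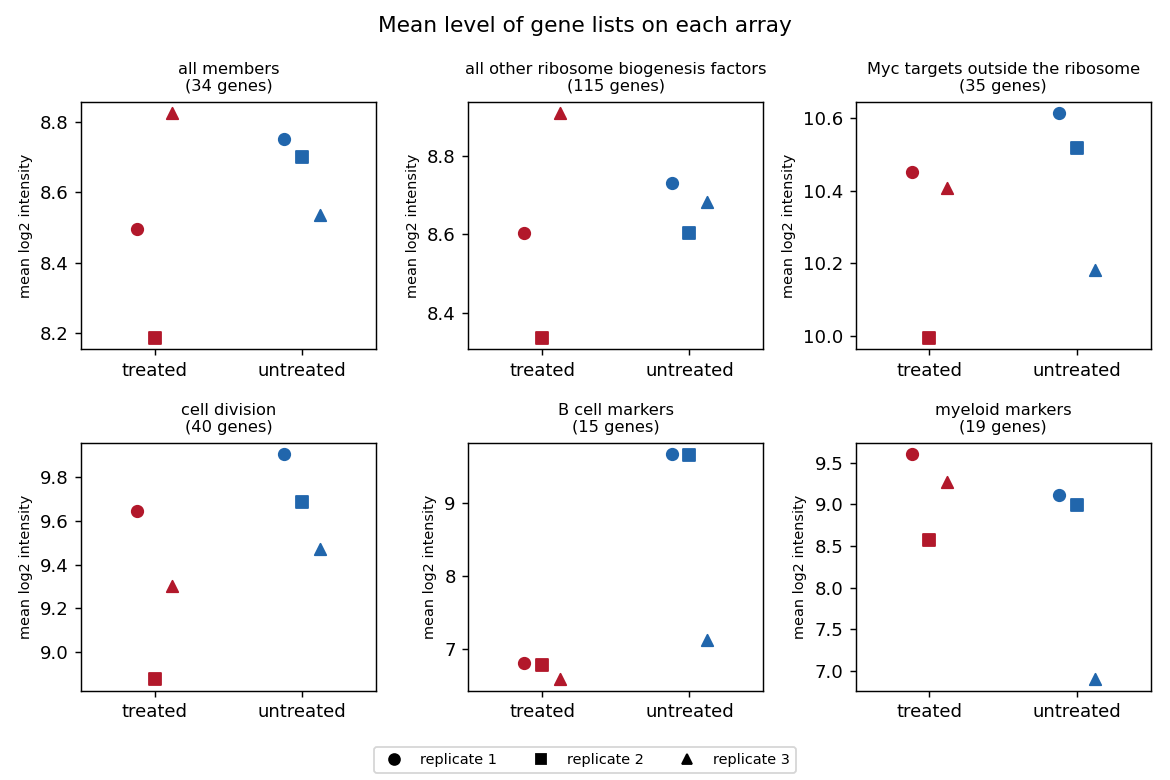
Mean log2 intensity of 6 gene lists on each array, with treated arrays (red) left of untreated arrays (blue) in each panel and symbols for the replicates. For the 34 genes the treated means of 8.50, 8.19 and 8.82 enclose the untreated means of 8.75, 8.70 and 8.53, whereas the B cell marker means do not overlap between the groups.

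Markers of other cells and of division differed between the same arrays. The mean of 40 measured cell division genes was 9.64, 8.88 and 9.30 in treated Tregs and 9.90, 9.68 and 9.47 in untreated Tregs. Of these genes 32 (80%) were below 0, against 41.5% of all genes and 53.7% of genes with a mean log2 level of at least 8. The median difference of the 40 genes was −0.45. Treated replicate 2 was the lowest array for division genes as for the 34 genes. The mean of 15 of 16 B cell markers was 6.81, 6.77 and 6.58 in treated Tregs and 9.66, 9.65 and 7.12 in untreated Tregs, with 14 of 15 below 0. Ms4a1, which encodes CD20 of B cells, was at 6.50, 6.66 and 6.30 in treated Tregs and at 12.95, 12.93 and 8.97 in untreated Tregs. Its difference was −5.13, against a median of −1.72 over the 15 B cell markers, which ran from −5.27 to 0.22. The mean of 19 of 20 myeloid markers was 9.60, 8.57 and 9.27 in treated Tregs and 9.12, 8.99 and 6.90 in untreated Tregs, lowest in untreated replicate 3. The mean of 10 of 11 NK and CD8 markers was 7.97, 7.73 and 7.75 in treated Tregs and 8.15, 8.33 and 7.21 in untreated Tregs. That of 8 of 10 erythroid markers was 8.79, 7.82 and 8.02 in treated Tregs and 8.84, 8.64 and 6.85 in untreated Tregs. Untreated replicate 3 was the lowest array for the myeloid, NK and CD8, and erythroid means. The mean of 14 of 16 T cell and Treg markers was 11.40, 11.47 and 11.94 in treated Tregs and 11.16, 10.74 and 11.74 in untreated Tregs. The part of these markers in the differences of the 34 genes was not tested.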

How the data were processed

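Sorted splenic Tregs of 6 mice, 1 mouse an array, fell into 2 groups of 3 by their labels. Per the labels' protocols, RNA was amplified in 2 rounds, which can strengthen 3′ bias. The authors deposited RMA intensity values made in GenePattern, per the series' design text, on a linear scale from 5.47 to 29584.931, and log2 was taken here without further normalization. The sources used here give no RMA version. Of 45101 probe sets, 64 controls were left out. The platform annotation gave 1 symbol for 34945, several for 932 and none for 9160. Genes are named from probe sets with 1 symbol only. Of these 34945 probe sets, 34741 were matched by gene identifier and took the RefSeq symbol of that identifier.

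Treated and untreated arrays were set against each other in limma 3.58.1 (lmFit and eBayes, R 4.3.3), 1 probe set a gene by highest mean, with Benjamini-Hochberg adjustment over 18193 genes. The fit was tested on simulated data. The 34 genes and all lists were chosen with earlier results of these data known, so their counts carry no test. Every array value is given for Myc, Ncl, Fbl, Npm1 and the 10 genes with the smallest p, values by role for the rest, and from each wider list the 4 genes with the smallest p. Max, Foxp3, Cd3e and Ms4a1 were added after their values were seen. Alternatives covered normalization, probe set choice, dim probe sets, age, array weights, a replicate block and leaving out each array. Only 3 arrays a group limit the precision.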

Additional observations from a re-analysis of the deposited data

How the results depend on the processing

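The adjusted threshold was passed by 0 of the 34 genes under every alternative run. Of 18193 genes, 0 passed with all arrays, 2 at an adjusted p of 0.1, 1 without _x_at and _s_at probe sets, 1 after median centring, 5 with array weights, 18 without replicate 3 of both groups, and 0 to 32 with 1 array left out. The 2 members lower at an unadjusted p under 0.05 became 0 with age as a covariate, 1 with a gene's probe sets averaged, 1 with array weights, 6 without replicate 3 of both groups and 1 to 3 with 1 array left out. The shares of all genes lower at that level were, in the same order, 2.35%, 3.02%, 3.74%, 4.20% and 1.52% to 4.82%. The 1 member higher at that level became 0 with dim probe sets left out, 0 with array weights and 0 without replicate 3 of both groups. It became 2 with quantile normalization and 0 to 2 with 1 array left out. All genes higher at that level numbered, in the same order, 145 of 9684, and 467, 207, 455 and 148 to 543 of 18193. With 1 array left out, the other biogenesis factors below 0 numbered 42 to 88 and the members' median difference ran from −0.295 to 0.00492. With a replicate block, 0 genes passed, 22 members were below 0, and Fbl, Ncl and Polr1c, 3 members, had lower levels at an unadjusted p under 0.05, against 4.13% of all genes. Ubtf was the 1 member higher at that level in that limma fit, at an unadjusted p of 0.0286, against 589 of 18193 genes. Ppan had an unadjusted p of 0.0529 in the same limma fit. Same-numbered arrays correlated at 0.513, 0.0102 and 0.103 in their deviations from group means, and arrays of different number at −0.472 to 0.226. The array file numbers in the labels are consecutive within each number. The numbers were not taken to pair the arrays in the main fit, and these correlations do not settle whether they do.

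Some differences changed sign, and the cause was not tested. With the mean of probe sets Polr1a was 0.0301, Nop56 −0.0803, Nolc1 −0.0261, Rrp1b 0.0698, Ebna1bp2 0.0248 and Mxd3 0.0198. Without _x_at and _s_at probe sets Nop56 was −0.328, Nhp2 −0.254, Ebna1bp2 0.248 and Polr1e −0.0315. Quantile normalization gave Rrp9 0.0184, median centring Nob1 −0.0118 and an offset of 16 Ebna1bp2 0.232. Array weights gave Nop14 −0.0848, Rrp12 −0.268 and Nop2 −0.00447. Without replicate 3 of both groups Nop56 was −0.273, Gar1 0.0478, Nolc1 −0.485, Rrp9 0.0830, Nop14 −0.0391, Utp20 −0.0406, Rrp12 −0.451, Nob1 −0.0800 and Nop2 −0.00816. With 1 array left out at a time, Npm1 ran from −0.626 to 0.0397, Gnl3 from −0.490 to 0.172, Polr1a from −0.0771 to 0.0267, Polr1c from −0.826 to 0.0326, Nop56 from −0.270 to 0.490 and Gar1 from −0.679 to 0.194. Nolc1 ran from −0.358 to 0.800, Rrp9 from −0.0989 to 0.0525, Nop14 from −0.0635 to 0.235, Rrp12 from −0.246 to 0.233, Tsr1 from −0.643 to 0.0400 and Nob1 from −0.237 to 0.190. Bop1 ran from −0.0812 to 0.289, Nop2 from −0.0461 to 0.267, Nop16 from −0.759 to 0.0640, Rrp1b from −0.470 to 0.0984, Ebna1bp2 from −0.235 to 0.0727 and Polr1e from −0.0415 to 0.354. The sign was the same in every alternative for 15 of the 34 genes, among them Fbl, Ncl, Myc and Ppan. The counts at an unadjusted p, the counts of other factors and the members' median were added to the alternatives after the data were seen.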
